A study of Mus musculus with 16 samples.

Results

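The marker genes of the liver sinusoid comprised 34 genes chosen by name, 19 of sinusoidal endothelial cells and 15 of hepatic stellate cells together with collagens, out of 51912 genes in the count table. All 34 were among the 14920 genes with enough counts to be tested, and the lowest count of any of them in any library was 25. The RNA came from whole livers of male mice aged 13 weeks. From 10 weeks of age the mice had eaten, for 3 weeks, either a low isoleucine diet or a control amino acid diet, both at about 22 °C; the strain is not given in the sources used here. Isoleucine is a branched-chain essential amino acid. The 4 groups of 4 libraries were low isoleucine refed, control refed, low isoleucine fasted and control fasted. Fasted livers were taken after 16 h without food, and the length of refeeding is not given in the sources used here. Each group carried its own number in the labels, and anything it marks cannot be told apart from diet and feeding state. The labels do not say in so many words that each library is a separate mouse, so p-values below measure the spread between these libraries.

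Sinusoidal endothelial cells line the capillaries of the liver with a fenestrated, filtering wall, take up waste molecules through scavenger receptors, and release WNT and BMP ligands that act on neighbouring hepatocytes. Stellate cells lie beneath that wall, store vitamin A, and make growth factors, reelin and matrix proteins; in injury they become the main source of fibrillar collagen. Hepatocytes supply most of the RNA of a whole liver, so these genes report minority cells, and fewer cells of a type cannot be told apart from less RNA per cell. Albumin (Alb), the main secreted protein of hepatocytes, averaged 68000 ± 10600 CPM in low isoleucine refed, 60100 ± 1540 in control refed, 80400 ± 8670 in low isoleucine fasted and 54100 ± 14200 in control fasted livers (SD, n = 4 each). CPM are counts relative to the size of each library, scaled by TMM factors. Alb does not stand for other hepatocyte genes. The mean log2 CPM over 12 hepatocyte markers was 11.5 ± 0.06, 11.34 ± 0.07, 11.74 ± 0.13 and 11.77 ± 0.04 in the same order.

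Total counts ran from 30405595 to 33822517 in low isoleucine refed, 24368656 to 33432158 in control refed, 29460888 to 34002955 in low isoleucine fasted and 28538541 to 32751692 in control fasted libraries. Control refed library 4 stood apart, with a TMM factor of 1.21 where the other 15 lay between 0.925 and 1.07. Against the other 3 control refed libraries it was above all of them for 18 of 19 endothelial genes, with a median difference of 0.86 on the log2 scale, and for 13 of 15 stellate genes, with a median of 1.22. The same held for 31.3% of all genes tested, whose median difference was 0. It was also above the other 3 for 11 of 13 Kupffer cell and macrophage markers, 12 of 12 lymphocyte markers and 3 of 3 neutrophil markers that were tested, against 3 of 12 hepatocyte markers. The count was 4 of 7 for mesothelial, 0 of 7 for cholangiocyte and 0 of 5 for erythroid markers. The lymphocyte list summed to 30.3 CPM in it, and over libraries to 9.3 to 14.8 in low isoleucine refed, 11.3 to 30.3 in control refed, 7.61 to 14.6 in low isoleucine fasted and 14.7 to 17.2 in control fasted libraries. The Kupffer list summed to 200 to 360, 246 to 464, 213 to 315 and 336 to 437 CPM in those groups in the same order, and the neutrophil list to 2.6 to 3.75, 2.24 to 7.14, 3.18 to 4.34 and 3.69 to 4.87 CPM. Ly6g and Camp, which define neutrophils, were near 0, averaging 0.00155 and 0.0105 CPM over the 16 libraries. What part this library's other cell types had in the results below was not tested. Results that use it are given with it, and also without it where that changes a call or moves the value by much. It was high for most of these genes, so leaving it out lowers most of their control refed levels. The direction of the shift this makes was set in advance and is not a result.

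**Figure D1:**
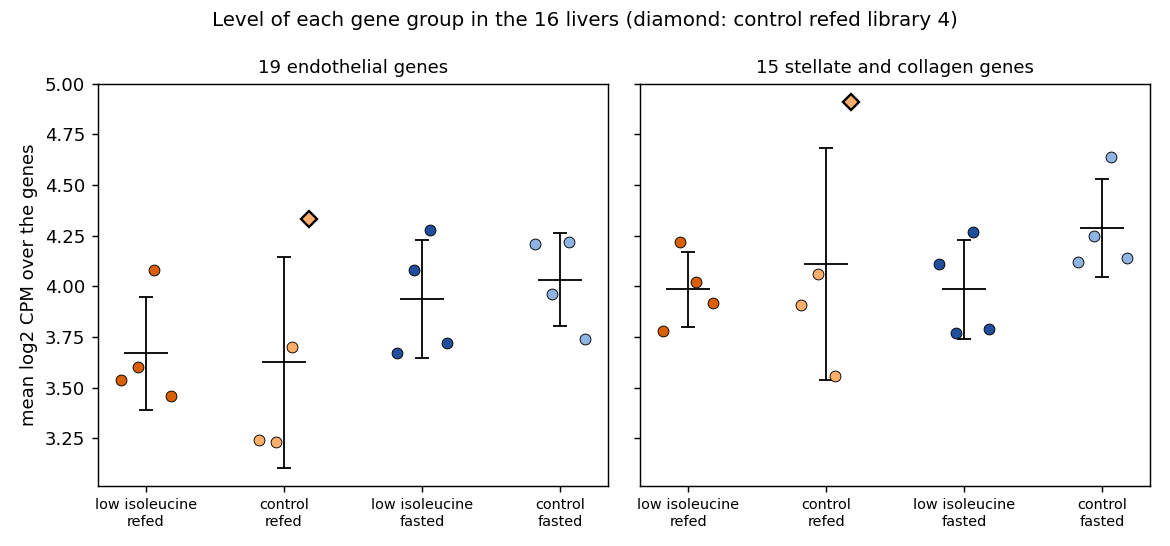
Mean log2 CPM over the 19 endothelial genes (left) and the 15 stellate and collagen genes (right) in each of the 16 libraries, with the mean and SD of each group. The diamond, control refed library 4, is the highest library in both panels, at 4.33 and 4.91.

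Averaged over genes on the log2 CPM scale, the endothelial level was 3.67 ± 0.28 in low isoleucine refed, 3.62 ± 0.52 in control refed, 3.94 ± 0.29 in low isoleucine fasted and 4.03 ± 0.23 in control fasted livers (SD, n = 4 each). The stellate level was 3.98 ± 0.19, 4.11 ± 0.57, 3.98 ± 0.25 and 4.29 ± 0.24 in the same groups. Without library 4 the control refed levels became 3.39 ± 0.27 for endothelial and 3.84 ± 0.26 for stellate genes (n = 3). With all 16 libraries the groups overlapped for both lists. On the control diet the overlap came from library 4. The other 3 refed libraries had endothelial levels of 3.24, 3.23 and 3.70, against 4.21, 3.96, 4.22 and 3.74 in the fasted libraries. Their stellate levels were 3.91, 4.06 and 3.56, against 4.12, 4.25, 4.64 and 4.14. The endothelial level minus the stellate level was -0.31 ± 0.30 in low isoleucine refed, -0.49 ± 0.43 in control refed, -0.05 ± 0.31 in low isoleucine fasted and -0.25 ± 0.23 in control fasted livers, with overlapping ranges. The lists did not always lie on the same side of their means. In low isoleucine fasted library 2 the endothelial level was 0.27 above its mean over 16 libraries while the stellate level was 0.32 below. In control refed library 3 both were below, the endothelial level by 0.12 and the stellate level by 0.53.

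Per length of exon, as TPM averaged over the 16 libraries, Ecm1 (67.5) and Dcn (65.4) were the most abundant. Ecm1 encodes extracellular matrix protein 1, and Dcn encodes decorin, a small proteoglycan that binds collagen. The lectins Colec11 (32.6) and Clec4g (25.5), the matrix glycoprotein gene Sparc (22.7) and Eng (17.6), which encodes the TGF-beta co-receptor endoglin, came next. The scarcest were Des (1.36), which encodes the intermediate filament desmin, Hgf (1.22), the gene of hepatocyte growth factor, and Col1a1 (1.18), a chain of type I collagen. Within groups the libraries spread more for these genes than for most. The median within-group SD of log2 CPM was 0.38 over endothelial and 0.42 over stellate genes, against 0.28 over all genes tested. The fibrillar collagens spread widest, with SDs of 0.87 for Col1a1, 0.79 for Col3a1 and 0.67 for Col1a2, next to Lyve1 with 0.83. Colec11 spread least, with an SD of 0.19. These SDs were not computed without library 4, which was the highest of the 16 for Col1a1, Col3a1, Col1a2 and Lyve1. For the list levels, leaving it out lowered the control refed SD from 0.52 to 0.27 (endothelial) and from 0.57 to 0.26 (stellate).

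**Figure D2:**
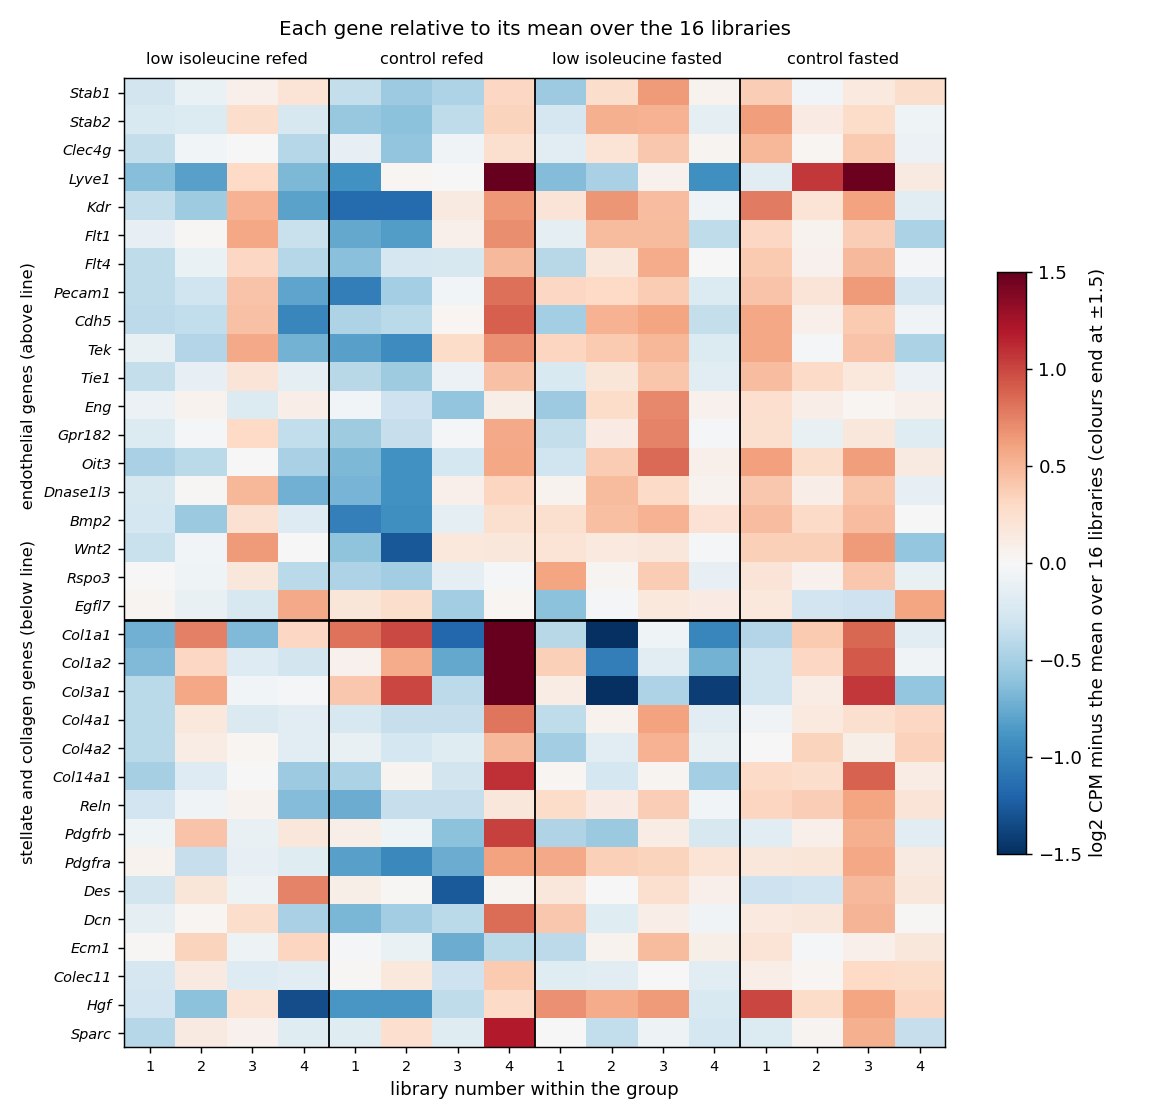
Log2 CPM of each of the 34 genes minus its mean over the 16 libraries; rows are genes, endothelial above the line and stellate and collagen genes below it, and columns are libraries in the 4 groups. Control refed library 4 is red in most rows and is the highest of all 16 for 5 endothelial and 10 stellate genes, against 13.2% of all genes. Low isoleucine fasted library 3 is the highest for 6 endothelial and 2 stellate genes, against 6.47% of all genes.

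The DNA just upstream of 4 of the genes is shown because they represent the patterns that follow: Reln, lower after refeeding on the control diet; Pdgfra and Stab1, called lower there when library 4 was left out; and Col3a1, called in no comparison. Of the 34 genes 22 had an entry in the set of RefSeq promoter windows used here (GRCm38.p6). Each window holds the 250 bases before an annotated start and overlaps no exon annotated in GENCODE M21. They lie at chr5:22344706-22344955 on the minus strand for Reln, chr5:75152001-75152250 on the plus strand for Pdgfra, chr14:31168642-31168891 on the minus strand for Stab1 and chr1:45311288-45311537 on the plus strand for Col3a1. They read 5′ to 3′ on the gene's strand, with motif matches on either strand in capitals.
Reln: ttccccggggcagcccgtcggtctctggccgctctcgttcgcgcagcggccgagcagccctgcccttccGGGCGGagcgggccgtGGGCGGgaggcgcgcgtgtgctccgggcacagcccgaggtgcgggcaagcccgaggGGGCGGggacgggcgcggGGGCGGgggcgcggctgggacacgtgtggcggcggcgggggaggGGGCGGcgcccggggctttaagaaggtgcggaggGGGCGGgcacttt
Pdgfra: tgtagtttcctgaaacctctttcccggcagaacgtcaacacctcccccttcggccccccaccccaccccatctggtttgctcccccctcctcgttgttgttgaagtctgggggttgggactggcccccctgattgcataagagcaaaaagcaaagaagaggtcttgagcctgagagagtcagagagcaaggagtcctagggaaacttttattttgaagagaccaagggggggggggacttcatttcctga
Stab1: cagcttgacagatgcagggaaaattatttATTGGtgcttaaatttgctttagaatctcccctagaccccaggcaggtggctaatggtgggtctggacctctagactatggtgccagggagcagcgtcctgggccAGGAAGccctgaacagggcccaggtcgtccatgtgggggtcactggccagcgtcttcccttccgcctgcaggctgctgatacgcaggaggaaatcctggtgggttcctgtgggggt
Col3a1: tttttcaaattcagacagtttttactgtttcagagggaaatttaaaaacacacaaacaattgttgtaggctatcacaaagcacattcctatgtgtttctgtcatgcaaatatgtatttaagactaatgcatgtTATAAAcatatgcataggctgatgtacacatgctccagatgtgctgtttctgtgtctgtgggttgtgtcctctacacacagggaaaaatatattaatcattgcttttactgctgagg
The capitals mark GGGCGG, the core of the GC box, in Reln; CCAAT, here on the opposite strand as ATTGG, and the ETS-type motif AGGAAG in Stab1; and TATAAA in Col3a1. Reln held 6 GGGCGG matches in a window of 80.0% G and C, against a median of 52.4% over 32851 such windows. The Pdgfra window, with 54.4% G and C, held none of the 4 motifs. Stab1 had 57.2% and Col3a1 35.2% G and C. Across all those windows GGGCGG was present in 32.7%, CCAAT in 33.8%, AGGAAG in 29.5% and TATAAA in 12.4%. Of 25 windows of the 22 genes, 10, 5, 11 and 4 held these motifs in the same order. A match is a run of letters and no more.

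Most of the 34 genes were lower in refed than in fasted livers on the control diet, but few by more than the spread between libraries. With all 16 libraries, 1 of the 34 passed an adjusted p of 0.05 by edgeR's quasi-likelihood test, Reln, which fell, where 17.1% of all genes were called and 8.2% were called lower. An unadjusted p under 0.05 was reached by 8 of the 34, all lower, and by 29.4% of all genes. Fold differences were negative for 18 of 19 endothelial genes (median -0.33 on the log2 scale) and for 10 of 15 stellate genes (median -0.18). Over all genes 48.7% were negative and the median was 0.01. When libraries were scaled by their size alone, the median of all genes moved to 0.14, and 5.01% were called lower. The endothelial median was then -0.19 and the stellate median turned to 0.01, with 14 and 7 genes negative.

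Without control refed library 4, 9 of the 34 genes were called and all 9 fell after refeeding on the control diet, where 18.2% of all genes were called and 9.13% were called lower. They were Stab1, Stab2, Oit3 and Bmp2 among endothelial genes and Reln, Hgf, Pdgfra, Dcn and Col14a1 among stellate genes. Negative folds then numbered 19 of 19 endothelial genes, with a median of -0.61, and 13 of 15 stellate genes, with a median of -0.37, against 50.8% of all genes. The direction of this shift follows from leaving out a library that is high for most of these genes. At an unadjusted p under 0.05 there were 13 endothelial and 6 stellate genes, all lower. The share of all genes at that threshold was 29.4% with all 16 libraries and was not computed without library 4. Markers of several other cells lay lower too in this comparison without library 4, with medians of -0.28 over Kupffer cell and macrophage, -0.48 over lymphocyte, -0.73 over neutrophil and -0.71 over mesothelial markers and 0 called in each. With library 4 those medians were -0.09, 0.08, 0.10 and -0.54. Cholangiocyte and erythroid markers lay higher, with medians of 0.28 and 0.11 without library 4 and 0.27 and 0.17 with it. The hepatocyte median was -0.25 either way. Their part in the members' values was not tested.

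**Figure D3:**
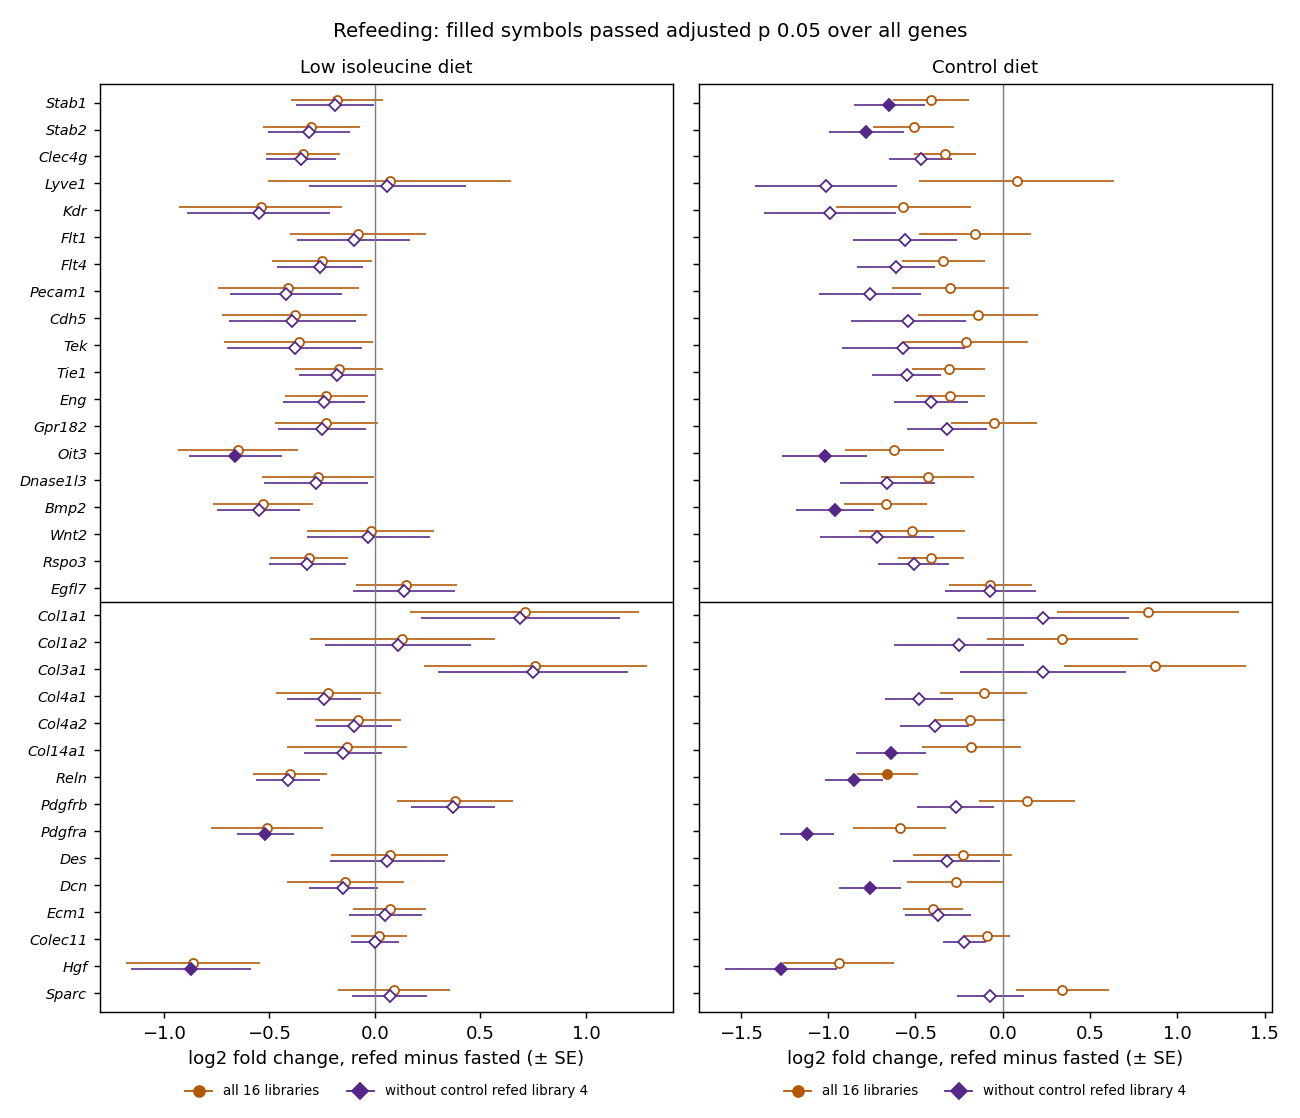
Log2 fold change, refed minus fasted, with its SE for each of the 34 genes on the low isoleucine diet (left) and the control diet (right), with all 16 libraries (circles) and without control refed library 4 (diamonds); filled symbols passed an adjusted p of 0.05. On the control diet 1 gene is filled with all libraries and 9 without library 4.

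Reln encodes reelin, a secreted glycoprotein that quiescent stellate cells make. It lies on chromosome 5 at 21884454 to 22344702 in GENCODE M21 (GRCm38). On the control diet its level was 24.7, 32.7, 32.7 and 46.6 CPM in the refed livers, against 52.1, 53.5, 62.6 and 47.5 CPM in the fasted livers. Every refed library was below every fasted library, with library 4 the nearest to them. Ecm1 was the other gene without overlap, at -0.40 (adjusted p = 0.133 by edgeR), and 9.62% of all genes were so. For Reln by edgeR the log2 fold change was -0.66 (SE 0.176, adjusted p = 0.0167). It was -0.85 (adjusted p = 0.00232) without library 4. The call was lost without control fasted library 3, which has the highest level of the 16, where the change was -0.58 (adjusted p = 0.052), and with scaling by library size alone, where it was -0.51 (adjusted p = 0.0961).

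Hgf, the ligand that drives hepatocyte growth through the receptor Met, had 2.13, 2.12, 2.99 and 4.76 CPM in control refed livers and 7.78, 4.71, 5.84 and 4.87 CPM in control fasted livers. Library 4 overlapped the fasted libraries, and the other 3 lay below all of them. Such a gap is met more easily by 3 libraries than by 4, and its share over all genes was not computed, here or below. The log2 fold change was -0.94 (SE 0.319, adjusted p = 0.0531 by edgeR) with all libraries and -1.27 (adjusted p = 0.012) without library 4. Pdgfra, a receptor for platelet-derived growth factors carried by stellate cells and fibroblasts, had 4.26, 3.83, 4.47 and 11.4 CPM in control refed livers and 8.42, 8.53, 11.2 and 8.21 CPM in control fasted livers. Here library 4 was the highest of all 16 and the other 3 control refed libraries were the lowest 3. The log2 fold change was -0.59 (adjusted p = 0.151 by edgeR) with library 4 and -1.12 (SE 0.153, adjusted p = 0.000159) without it.

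Dcn and Col14a1, a fibril-associated collagen, followed the same course. Dcn had 110, 124, 134 and 318 CPM in control refed livers, against 197, 199, 253 and 180 CPM in control fasted livers. Its log2 fold change by edgeR was -0.27 (adjusted p = 0.575) with library 4 and -0.76 (adjusted p = 0.00742) without it. Col14a1 had 26.4, 37.8, 30.3 and 78.0 CPM in control refed livers, against 44.6, 43.8, 67.7 and 39.4 CPM in control fasted livers. Its change by edgeR was -0.18 (adjusted p = 0.744) and, without library 4, -0.64 (adjusted p = 0.0377). In both genes library 4 was the highest of all 16 and the other 3 refed libraries lay below every fasted library.

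The scavenger receptors and Oit3 were the endothelial genes that stood with them. Stab2, which encodes stabilin-2, a receptor that clears hyaluronan, had 22.6, 21.9, 25.7 and 42.3 CPM in control refed livers and 51.5, 36.4, 40.6 and 32.0 CPM in control fasted livers. The first 3 refed libraries were below every fasted library and library 4 lay among them. The log2 fold change by edgeR was -0.51 (adjusted p = 0.155) with library 4 and -0.78 (adjusted p = 0.0197) without it. Stab1, its paralogue, had 21.9, 19.2, 20.3 and 34.7 CPM in control refed livers and 36.1, 27.2, 31.0 and 33.6 CPM in control fasted livers. Its change was -0.41 (adjusted p = 0.228 by edgeR), and -0.65 (adjusted p = 0.0372) without library 4. Oit3, a marker of liver sinusoidal endothelium, had 8.73, 7.42, 11.6 and 20.7 CPM in control refed livers and 21.3, 16.7, 21.5 and 15.2 CPM in control fasted livers. It gave -0.62 (adjusted p = 0.158 by edgeR) and, without library 4, -1.02 (adjusted p = 0.00882).

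Of the ligands that sinusoidal endothelium sends to hepatocytes, Bmp2, which drives hepcidin expression, had 4.87, 5.24, 8.98 and 11.7 CPM in control refed livers, against 13.7, 12.1, 13.7 and 9.85 CPM in control fasted livers. Its log2 fold change by edgeR was -0.67 (SE 0.237, adjusted p = 0.0608), and -0.96 (adjusted p = 0.00673) without library 4. Library 4 was again the only refed library to overlap the fasted ones. Wnt2 and Rspo3, which maintain the pericentral zone of the lobule, were not called. Wnt2 gave -0.52 (adjusted p = 0.278) and Rspo3 -0.41 (adjusted p = 0.147), and without library 4 they gave -0.72 (adjusted p = 0.142) and -0.51 (adjusted p = 0.0878).

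The receptors for VEGF, Kdr, Flt1 and Flt4, the angiopoietin receptor Tek and its relative Tie1, and the junction genes Pecam1 and Cdh5 gave log2 fold changes between -0.57 and -0.14 on refeeding the control diet, with no call. Without library 4 they lay between -0.99 (Kdr) and -0.54 (Cdh5), again with no call by edgeR. Kdr showed how widely they spread. It had 14.5, 14.5, 35.4 and 50.6 CPM in control refed livers and 55.4, 37.1, 49.1 and 28.9 CPM in control fasted livers. Egfl7, which encodes a secreted endothelial protein, was nearest to 0 among endothelial genes without library 4, at -0.07, and was the endothelial gene for which library 4 was not above the other 3.

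The other endothelial genes were not called. Clec4g, a lectin receptor of sinusoidal endothelium, had 27.4, 19.9, 28.9 and 35.4 CPM in control refed livers and 42.3, 30.6, 39.1 and 28.2 CPM in control fasted livers, at -0.33 (adjusted p = 0.234 by edgeR). Dnase1l3, which encodes a secreted DNase, gave -0.43 (adjusted p = 0.321 by edgeR), Eng -0.30 (adjusted p = 0.346) and the receptor gene Gpr182 -0.05 (adjusted p = 0.928). Without library 4 these 4 gave -0.47, -0.66, -0.41 and -0.32. Lyve1 gave 0.08 (adjusted p = 0.956 by edgeR) with library 4 and -1.01 (adjusted p = 0.0998) without it.

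Of the other stellate genes, Pdgfrb had 9.53, 8.53, 5.83 and 18.2 CPM in control refed livers and 8, 9.42, 13.0 and 7.99 CPM in control fasted livers, at 0.14 (adjusted p = 0.797 by edgeR). Library 4 was the highest of the 16, and without it the value was -0.27 (adjusted p = 0.423). Sparc gave 0.34 (adjusted p = 0.439 by edgeR) and, without library 4, -0.07 (adjusted p = 0.833). Colec11 gave -0.09 and Des -0.23, and without library 4 they gave -0.22 and -0.32, with no call.

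The fibrillar collagens ran the other way without being called. Col1a1 gave a log2 fold change of 0.83 (SE 0.52, adjusted p = 0.325 by edgeR), Col3a1 0.87 (SE 0.521, adjusted p = 0.301) and Col1a2 0.34 (SE 0.432, adjusted p = 0.671). Col3a1 had 22.4, 34.1, 12.9 and 73.9 CPM in control refed livers and 13.8, 18.4, 35.3 and 11.4 CPM in control fasted livers. The groups overlapped and library 4 was the highest of the 16. Without it Col1a1 and Col3a1 each gave 0.23 and Col1a2 gave -0.25. Col4a1 and Col4a2, the basement membrane collagens, gave -0.11 and -0.19, and -0.48 (adjusted p = 0.0927) and -0.39 (adjusted p = 0.185) without library 4. These 2 genes overlap head to head on opposite strands of chromosome 8, between 11312805 and 11312826 in GENCODE M21, and how strand was used in counting is not given in the sources used here.

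**Figure D4:**
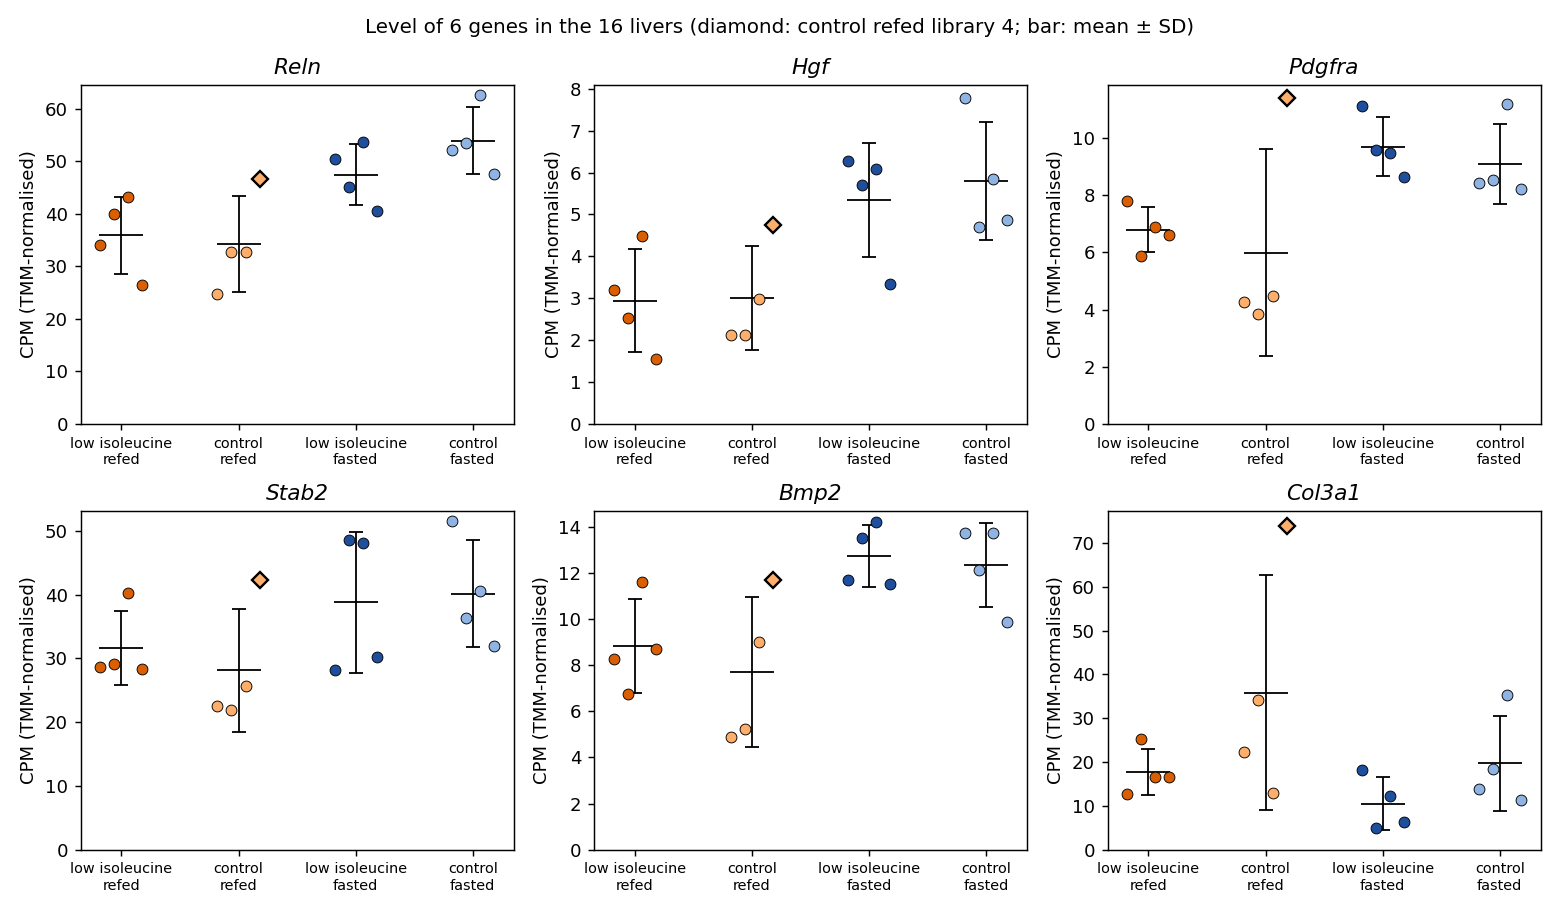
CPM of Reln, Hgf, Pdgfra, Stab2, Bmp2 and Col3a1 in each library of the 4 groups, with the group mean and SD. In the first 5 genes, all called without library 4, the circles of the control refed group lie below every control fasted library. The diamond, library 4, lies above those circles. The share of all genes with such a gap was not computed. In Col3a1 the groups overlap and the diamond is at 73.9 CPM.

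Refeeding on the low isoleucine diet left the endothelial genes mostly on the negative side and the stellate genes divided, with Hgf, Reln, Bmp2 and Oit3 nearest to the threshold. By edgeR 0 of the 34 passed, where 21.4% of all genes were called and 11.8% were called lower. At an unadjusted p under 0.05 stood 4 of them, all lower, beside 33.4% of all genes. The count was 0 with limma-voom and 1, Hgf, with DESeq2, where 21.7% and 25% of all genes were called. Negative folds numbered 17 of 19 endothelial genes (median -0.27, log2) and 7 of 15 stellate genes (median 0.02). Over all genes 48% were negative and the median was 0.02. Scaling by library size alone moved the median of all genes to 0.13, with 7.73% called lower, the endothelial median to -0.17 and the stellate median to 0.13.

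Hgf had 3.20, 2.54, 4.49 and 1.55 CPM in low isoleucine refed livers and 6.28, 5.70, 6.08 and 3.33 CPM in low isoleucine fasted livers. A single fasted library, the fourth, fell within the refed range. The log2 fold change was -0.86 (SE 0.318, adjusted p = 0.0645 by edgeR). Pdgfra had 7.78, 5.89, 6.88 and 6.60 CPM in low isoleucine refed livers and 11.1, 9.57, 9.48 and 8.62 CPM in low isoleucine fasted livers. Every refed library was below every fasted one, as for 13.1% of all genes, and the change was -0.51 (SE 0.266, adjusted p = 0.192 by edgeR). Reln had 34.1, 40.0, 43.1 and 26.5 CPM in low isoleucine refed livers and 50.4, 45.1, 53.6 and 40.5 CPM in low isoleucine fasted livers. The groups overlapped by a little, and the change was -0.40 (SE 0.175, adjusted p = 0.118 by edgeR).

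Bmp2 had 8.25, 6.73, 11.6 and 8.69 CPM in low isoleucine refed livers and 11.7, 13.5, 14.2 and 11.5 CPM in low isoleucine fasted livers, a log2 fold change of -0.53 (adjusted p = 0.121 by edgeR). Oit3 had 9.87, 10.5, 13.8 and 9.87 CPM in low isoleucine refed livers and 11.3, 18, 25 and 14.6 CPM in low isoleucine fasted livers, a change of -0.65 (adjusted p = 0.122 by edgeR). Both overlapped between feeding states. Leaving out control refed library 4 also narrowed the shared spread behind this comparison, to which that library gives no level of its own. Then 3 of the 34 were called, where 23.9% of all genes were called and 13.6% were called lower, and all 3 fell: Pdgfra (-0.52, adjusted p = 0.01), Hgf (-0.87, adjusted p = 0.0357) and Oit3 (-0.66, adjusted p = 0.0387). The collagens were not called on this diet either, with 0.71 for Col1a1, 0.76 for Col3a1 and 0.13 for Col1a2. The endothelial genes not named here lay between -0.54 (Kdr) and 0.15 (Egfl7), and the remaining stellate genes between -0.22 (Col4a1) and 0.38 (Pdgfrb).

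The low isoleucine diet left none of the 34 genes called in refed livers, where 0.174% of all genes were called. Lyve1 and Ecm1 alone reached an unadjusted p under 0.05 by edgeR, as did 9.76% of all genes. The alternative tools, limma-voom and DESeq2, gave 0 calls. Negative folds, low isoleucine minus control, numbered 10 of 19 endothelial genes (median 0, log2) and 11 of 15 stellate genes (median -0.12), against 52.4% and -0.01 over all genes. Lyve1, which encodes a hyaluronan receptor of sinusoidal and lymphatic endothelium, had 5.37, 4.74, 10.3 and 5.25 CPM in low isoleucine refed livers and 4.46, 8.53, 8.30 and 38.6 CPM in control refed livers. Library 4 held the highest value and the other libraries overlapped. The log2 fold change was -1.23 (SE 0.573, adjusted p = 0.508 by edgeR) with that library and -0.16 (adjusted p = 0.945) without it.

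Ecm1 had 82.2, 102, 76.6 and 101 CPM in low isoleucine refed livers and 79.9, 75.6, 48.5 and 61.4 CPM in control refed livers. The groups overlapped, at a log2 fold change of 0.45 (SE 0.173, adjusted p = 0.415 by edgeR). Col1a1, Col3a1 and Col1a2 gave -1.02, -1.01 and -0.80 with library 4, and -0.44, -0.39 and -0.23 without it, with no call. The Kupffer cell and macrophage markers were negative for 13 of 13 genes in this comparison, with a median of -0.40 and 0 called; without library 4 they were negative for 12 of 13, with a median of -0.23. Their part was not tested. Without library 4 the diet medians in refed livers became 0.26 over endothelial and 0.15 over stellate genes, with 1 of 19 and 6 of 15 negative, against 51.4% of all genes. The direction of this shift follows from leaving out a library that is high for most of these genes. Again 0 of the 34 were called by edgeR, where 0.592% of all genes were, and 2 had an unadjusted p under 0.05. The share of all genes at the unadjusted threshold was not computed without library 4. The nearest was Pdgfra, which had 7.78, 5.89, 6.88 and 6.60 CPM in low isoleucine refed livers against 4.26, 3.83 and 4.47 CPM in those 3 control refed livers, at 0.68 (SE 0.152, adjusted p = 0.0544).

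**Figure D5:**
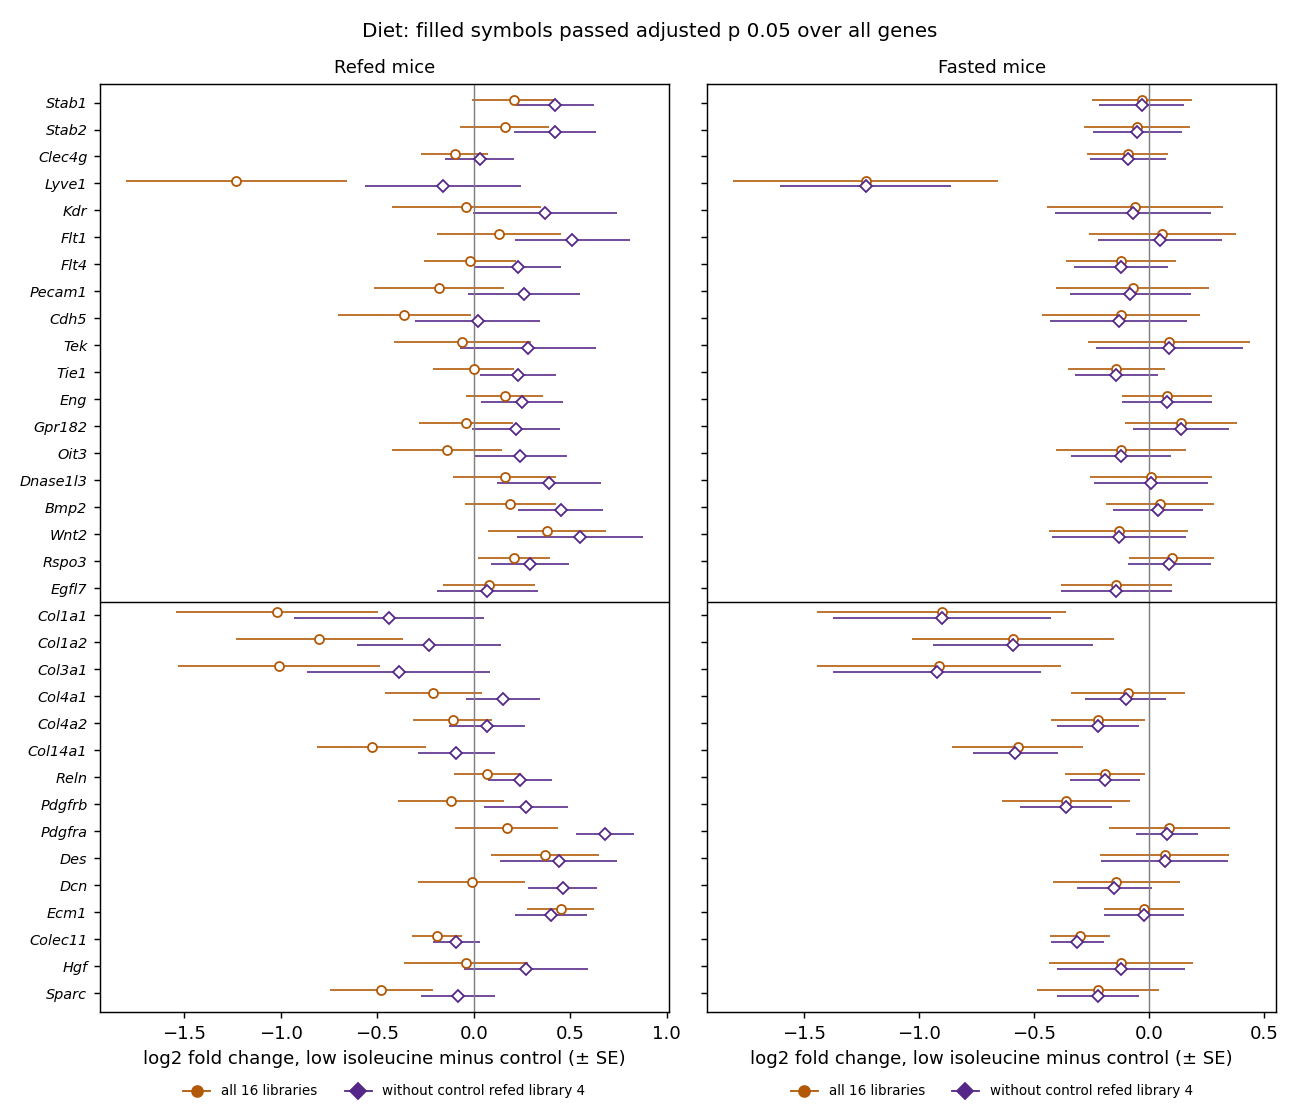
Log2 fold change, low isoleucine minus control, with its SE for each of the 34 genes in refed mice (left) and fasted mice (right), with all 16 libraries (circles) and without control refed library 4 (diamonds). No symbol is filled, since 0 genes passed an adjusted p of 0.05; the diamonds sit to the right of the circles in refed mice for nearly every gene.

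In fasted livers, a comparison that library 4 does not enter except through the shared spread, 0 of the 34 genes were called by edgeR, where 0.771% of all genes were. A single gene, Colec11, reached an unadjusted p under 0.05, beside 10.8% of all genes, and the calls of limma-voom and DESeq2 also numbered 0. Negative folds numbered 12 of 19 endothelial genes (median -0.06, log2) and 13 of 15 stellate genes (median -0.22), against 48.3% and 0.01 over all genes. Colec11, which encodes a collectin that binds microbial sugars, had 22.4, 22.8, 25.3 and 22.7 CPM in low isoleucine fasted livers and 27.2, 25.9, 31.1 and 30.7 CPM in control fasted livers. Every low isoleucine library was below every control library, at -0.30 (SE 0.131, adjusted p = 0.401 by edgeR). Col14a1 had 37.5, 30.5, 37.6 and 25.8 CPM in low isoleucine fasted livers and 44.6, 43.8, 67.7 and 39.4 CPM in control fasted livers, again without overlap, at -0.57 (SE 0.284, adjusted p = 0.492 by edgeR). Groups did not overlap in this direction for 4.4% of all genes.

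The fibrillar collagens were also on the negative side in fasted livers. Col3a1 had 18.3, 5.08, 12.3 and 6.36 CPM in low isoleucine fasted livers and 13.8, 18.4, 35.3 and 11.4 CPM in control fasted livers, at -0.91 (SE 0.53, adjusted p = 0.596 by edgeR). The groups overlapped. Lyve1 had 5.32, 5.98, 8.73 and 4.40 CPM in low isoleucine fasted livers and 7.43, 17.4, 23.2 and 9.14 CPM in control fasted livers, at -1.23 (SE 0.576, adjusted p = 0.466 by edgeR), with 1 library of each diet overlapping. With control refed library 4 left out, its adjusted p was 0.135 and again 0 of the 34 were called, where 1.48% of all genes were, with 3 at an unadjusted p under 0.05. The share of all genes at the unadjusted threshold was not computed without that library. The Kupffer cell and macrophage markers were negative for 12 of 13 genes in the same comparison, with a median of -0.54 and 0 called. The lymphocyte markers were negative for 12 of 12, with a median of -0.38 and Cd4 called lower. Their part in the stellate values was not tested.

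The difference between the 2 diets in the refeeding effect was itself tested as an interaction. By edgeR 0 of the 34 passed, as did 0% of all genes, and 0 reached an unadjusted p under 0.05, against 6.22% of all genes. With limma-voom and with DESeq2 the count was 0 of the 34 as well. Negative values numbered 7 of 19 endothelial and 5 of 15 stellate genes, against 52.3% of all genes. Medians were 0.08 over both lists, and the largest values were 0.51 (SE 0.429) for Wnt2 and 0.46 (SE 0.244) for Ecm1. Without library 4 all 34 values were positive, where 51.8% of all genes were negative, and the medians were 0.36 over endothelial and 0.42 over stellate genes. Library 4 is high for most of these genes, so leaving it out raises most of these values by construction. Their signs are therefore not a separate result. Again 0 were called by edgeR, with Dcn, Pdgfra and Pdgfrb, the receptor for PDGF-B on stellate cells, at an unadjusted p under 0.05. The share of all genes at the unadjusted threshold was not computed without library 4. So the larger number of control diet calls is not shown to differ from the low isoleucine diet.

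The receptors and ligands that pair with these genes included several that changed on refeeding. Of these partners, 4 of 28 tested rose and 10 fell on the low isoleucine diet, where 21.4% of all genes were called and 11.8% were called lower. On the control diet 2 rose and 5 fell, where 17.1% were called and 8.2% were called lower. Without library 4 it was 2 and 6, where 18.2% were called and 9.13% were called lower. Met, the receptor for hepatocyte growth factor, had 58.6, 50.6, 62.9 and 53.2 CPM in low isoleucine refed livers, against 88.1, 81.6, 71.8 and 73.2 CPM in low isoleucine fasted livers. It had 58.3, 64.8, 51.8 and 53.7 CPM in control refed livers, against 77.4, 76.7, 79.6 and 69.8 CPM in control fasted livers. No refed library reached a fasted one on either diet, as for 13.1% of all genes on low isoleucine and 9.62% on control. Met fell by edgeR on both, with log2 fold changes of -0.48 (adjusted p = 0.00309) and -0.41 (adjusted p = 0.0117). Without library 4 the control value was -0.38 (adjusted p = 0.0255).

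The WNT co-receptor gene Lrp6 fell on both diets, by 1.01 (adjusted p = 7.31e-06 by edgeR) on low isoleucine and by 0.80 (adjusted p = 0.000123) on control, on the log2 scale. Fzd4, a WNT receptor, fell by 0.96 and by 0.83. Pdgfa, a ligand of the Pdgfra product, rose by 1.40 (adjusted p = 0.000127 by edgeR) and by 1.07 (adjusted p = 0.00149). Vegfa, the ligand of the Kdr and Flt1 products, had 171, 156, 129 and 216 CPM in low isoleucine refed livers and 80.5, 96.2, 107 and 106 CPM in low isoleucine fasted livers. Vegfa rose there by 0.79 (adjusted p = 0.00189 by edgeR), and on the control diet it gave 0.36 (adjusted p = 0.135).

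Reelin binds 2 receptors. Lrp8 was too scarce to test, at or below 0.223 CPM in every library. Vldlr was higher on the low isoleucine diet in both feeding states, the 1 gene of this list called by diet. It had 16.7, 17.4, 14.3 and 15.4 CPM in low isoleucine refed livers, against 3.06, 2.89, 1.16 and 3.18 CPM in control refed livers, a log2 fold change of 2.62 (adjusted p = 0.00487 by edgeR), and of 2.73 (adjusted p = 0.00668) without library 4. In fasted livers it had 8.37, 9.15, 7.41 and 7.24 CPM on low isoleucine, against 3.41, 1.40, 1.73 and 0.738 CPM on control, a change of 2.15 (adjusted p = 0.0143 by edgeR). Reln itself gave 0.07 (adjusted p = 0.931) in refed and -0.19 (adjusted p = 0.796) in fasted livers for the same diet contrast.

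Hepatocyte genes that respond to the endothelial ligands were measured alongside. Hamp, which encodes hepcidin and is a target of BMP signalling, had 1600, 1280, 1300 and 1880 CPM in low isoleucine refed livers and 44.2, 210, 229 and 395 CPM in low isoleucine fasted livers. No library overlapped and Hamp rose by 2.79 (SE 0.529, adjusted p = 0.00188 by edgeR), in the comparison where Bmp2 gave -0.53. The share of all genes without overlap in that direction is not given here. On the control diet Hamp had 1180, 613, 743 and 1550 CPM in refed livers and 770, 326, 262 and 378 CPM in fasted livers, at 1.23 (adjusted p = 0.112 by edgeR), or 0.95 (adjusted p = 0.245) without library 4. The interaction for Hamp was 1.55 (adjusted p = 0.796 by edgeR), so a difference between the diets is not shown. Hamp2 is a near copy of Hamp, so how reads were split between them is uncertain. Id1, another BMP target, was not called in any comparison. Of the pericentral WNT targets, Lgr5, itself a receptor for R-spondins, rose on refeeding by 0.88 (adjusted p = 0.00527 by edgeR) on low isoleucine and by 0.76 (adjusted p = 0.019) on control. Axin2 and Glul were not called in any comparison. Of 16 such targets 4 rose and 1 fell on low isoleucine, beside the 21.4% of all genes called there. On control 2 rose and 0 fell, beside 17.1% of all genes. Without library 4, where these targets summed to 6900 CPM against 12600 to 14100 CPM in the other control refed libraries, 4 rose on control: Lgr5, Nkd1, Cyp1a2 and Rnf43. In that fit 18.2% of all genes were called on control.

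Further markers of the same cells, from lists that do not hold the 34 genes, gave few calls with all 16 libraries. Refeeding called 21.4% of all genes on low isoleucine and 17.1% on control. Without library 4 it called 18.2% on control, with 9.13% lower. Among 34 other endothelial genes, S1pr1, a receptor for sphingosine 1-phosphate, rose on refeeding, by 0.80 (adjusted p = 0.00923 by edgeR) on low isoleucine and by 1.41 (adjusted p = 0.000219) on control. Vwf and Nrp2 fell on low isoleucine, by 0.65 and 0.73, and Gata4, a transcription factor of sinusoidal endothelium, rose by 0.49 on control. The list's median log2 fold change was -0.24 on low isoleucine and -0.25 on control, with 26 of 34 negative on each. Without library 4 the control median was -0.55, with 29 of 34 negative, 2 higher and 7 lower, among them Erg (-1.04, adjusted p = 0.0229 by edgeR), an endothelial transcription factor. Among 33 other stellate and fibroblast genes tested, Tmem56 fell on both diets, by 2.09 (adjusted p = 1.67e-07 by edgeR) and by 1.56 (adjusted p = 4.67e-06). Nes, which encodes nestin, rose by 1.06 (adjusted p = 0.0174 by edgeR) on low isoleucine. On control Nes gave 0.94 (adjusted p = 0.039 by edgeR), a call lost without library 4, at 0.77 (adjusted p = 0.0956). Lrat, the enzyme that esterifies vitamin A for storage in stellate cells, gave 0.67 (adjusted p = 0.0465 by edgeR) on control, also lost without library 4, at 0.39 (adjusted p = 0.164). On low isoleucine Lrat gave 0.58 (adjusted p = 0.0723 by edgeR), and 0.56 (adjusted p = 0.0272) without library 4. Medians were 0.11 on low isoleucine and 0.03 on control. Without library 4 the control median was -0.39, with 1 higher and 5 lower, beside the 18.2% of all genes called. Activation genes of stellate and smooth muscle cells gave 1 call of 14 on refeeding low isoleucine, Ccn2, which encodes a matricellular protein and fell by 1.52 (adjusted p = 0.0112 by edgeR), and 0 on control. Without library 4 Ccn2 was called lower on control too, at -1.22 (adjusted p = 0.0303 by edgeR, against -0.75 and 0.204 with it), and the list's control median was -0.15, against 0.27 with it. The diet called 0 genes of these 3 lists in either feeding state, where 0.771% of all genes were called in fasted and 0.174% in refed livers.

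In the authors' deposited tables of the diet comparisons, where fold changes run low isoleucine minus control, all 34 genes were listed and 0 were called in either. In the authors' deposited table for refed livers 4 had a p under 0.05 and the smallest adjusted p was 0.421. In the authors' deposited table for fasted livers 3 had a p under 0.05 and the smallest adjusted p was 0.34.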

How the data were processed

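Poly-A enriched, stranded libraries of 16 livers were sequenced over 3 lanes that were merged per sample, per the labels' protocols. The authors deposited RSEM expected counts per gene, and 10.2% of the values are not whole. Per the file headers, the 2 diet tables the authors deposited hold log2 CPM, log2 fold changes, p-values and an F score. No aligner, build or annotation is given in the sources used here. R 3.5.3, limma and edgeR are listed in the submitters' processing notes.

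Expected counts were rounded. Software was DESeq2 1.42.0, limma 3.58.1 and, for the main tests, edgeR 4.0.16 under R 4.3.3. Genes were kept by filterByExpr (minimum count 10, total 15), scaled by TMM and tested by robust quasi-likelihood, each of the 4 groups having its own mean and all 16 libraries sharing the spread. P-values were adjusted by Benjamini-Hochberg over 14920 genes, with a threshold of 0.05. SEs are the absolute log2 fold change over the square root of F. Each of the 34 genes had 25 or more counts in every library; counting error and the spread between libraries were not separated. Levels per exon length use merged GENCODE M21 exons. The method was checked on simulated counts. These held no library that was high for a whole set of genes, so the check does not bear on control refed library 4.

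The members and lists were chosen with earlier results of these data known. All 34 members could be named, and up to 4 called genes of each other list per comparison plus 9 fixed binding partners and targets. Alb, Ly6g and Camp were named outside this rule. Alternatives were other scalings, filters, tests, fits and left-out libraries; 3 combinations with control refed library 4 left out were added after seeing the data. Replicate marks (RL, R, L, N) did not pair the libraries.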

Additional observations from a re-analysis of the deposited data

Results flagged for a closer look

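Each gene's 4 values per group, 136 sets in all, were searched for a library far from the other 3 by Dixon's criterion (gap over range), which chance meets in about 1 set in 20. It was met 10 times. Control refed library 4 was far above the rest for Lyve1 (38.6 CPM, next 8.53), Col4a1 (40.1, next 19.5), Col4a2 (23.0, next 15.3), Pdgfra (11.4, next 4.47) and Dcn (318, next 134). Low isoleucine refed library 3 was far above for Stab2 (40.3 CPM, next 29.1) and Lyve1 (10.3, next 5.37). Low isoleucine fasted library 3 was far above for Colec11 (25.3 CPM, next 22.8), and control fasted library 3 for Pdgfra (11.2 CPM, next 8.53). Control refed library 3 was far below the rest for Des (0.998 CPM, next 2.42). No cause of these values was tested.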

How the results depend on the processing

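Reln on refeeding control, the only member called in the main fit, kept its direction in every alternative. Some list medians near 0 changed sign. The stellate median on refeeding control was -0.18, against 0.01 with library size alone, and that of the diet in refed livers was -0.12, against 0.15 without control refed library 4. The endothelial median there was 0, against 0.26. The ranges below show the other crossings. On refeeding the control diet, 1 of the 34 genes was called, against 0 with library size alone, 2 with at least 1 CPM in 4 libraries, 3 with DESeq2 and 2 with limma-voom. The shares of all genes called were 17.1%, 17.7%, 20.2%, 20.5% and 16.5% in that order. On refeeding low isoleucine, 0 were called, against 1 with DESeq2 and 2 with only the compared groups in the fit. There 21.4%, 25% and 21.9% of all genes were called. With the labels' mark as a replicate block, 2 were called on refeeding the control diet, where 15.4% of all genes were. The marks did not pair libraries (same-mark correlations of deviations -0.325 to 0.323, other marks -0.425 to 0.387), and the block changed no other count. The cause of these shifts was not tested.

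Leaving out each library in turn gave 0 to 9 calls on refeeding control, 0 to 3 on refeeding low isoleucine, and 0 to 0 for both diet comparisons and the interaction. Over those fits 12% to 18.2% of all genes were called on refeeding control and 16.1% to 23.9% on refeeding low isoleucine. Reln ranged from -0.85 to -0.53. Endothelial medians ranged from -0.14 to 0.05 (diet, fasted), -0.11 to 0.26 (diet, refed), -0.41 to -0.18 (refeeding, low isoleucine), -0.61 to -0.25 (refeeding, control) and -0.08 to 0.36 (interaction). Stellate medians ranged from -0.33 to -0.12, -0.30 to 0.15, -0.07 to 0.11, -0.37 to -0.01 and -0.05 to 0.42 in the same order.

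With control refed library 4 left out and chosen after seeing the data, DESeq2 called 1 (diet, fasted, Lyve1), 1 (diet, refed, Pdgfra), 5 (refeeding, low isoleucine) and 13 (refeeding, control). The shares of all genes called were 3.69%, 2.41%, 26.9% and 21.6% in that order. Limma-voom called 4 and 10 on refeeding low isoleucine and control, where 24.8% and 17.6% of all genes were called. Its stellate interaction median was 0.43. Library size alone called 1 (diet, refed, Pdgfra), 1 (refeeding, low isoleucine) and 8 (refeeding, control), where 0.459%, 26.8% and 19% of all genes were called. Its medians were 0.36 endothelial and 0.25 stellate (diet, refed), and 0.43 and 0.48 (interaction).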

Other observations

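Other cells and hepatocyte functions were measured in the same libraries, with calls by edgeR's quasi-likelihood test. Of 12 hepatocyte markers, Pck1, the gluconeogenic enzyme gene, fell on refeeding both diets, by 1.86 (adjusted p = 0.00177) on low isoleucine and by 1.99 (adjusted p = 0.00146) on control, on the log2 scale. Without control refed library 4 the control count of these markers was 4 lower, Tat, Cps1, Ass1 and Pck1, against 1 with it. Of all genes 9.13% were called lower without that library and 8.2% with it. Apob, the main lipoprotein gene, fell by 0.53 (adjusted p = 0.00858) and Hnf4a, a hepatocyte transcription factor, by 0.71 (adjusted p = 0.00553), both on refeeding low isoleucine. The haemoglobin genes Hbb-bs and Hbb-bt fell there by 0.81 and 0.95, and Hbb-bs was 1.00 higher on low isoleucine in fasted livers (adjusted p = 0.0275); they are close copies whose reads the counting could split. Of the BMP targets, Smad9 fell on refeeding, by 1.34 (adjusted p = 0.00772) on low isoleucine and by 1.77 (adjusted p = 0.00172) on control. Of the pericentral WNT targets, Lect2 and Cyp1a2 rose on refeeding low isoleucine, by 1.08 and 1.00, and Tbx3 fell by 0.88. Of 7 cholangiocyte, 7 mesothelial and 3 neutrophil markers tested, 0 were called in any comparison, with or without control refed library 4.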
